A study of Mus musculus with 34 samples.

Results

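Gene expression was compared between cultures in mouse embryonic stem (ES) cells that lack the 3 MTA proteins, which are subunits of the NuRD chromatin remodelling and histone deacetylase complex. The comparison rests on 8 RNA-seq libraries of the genotype Mta123KO (Mta123∆), of 34 libraries in the series, chosen by genotype and culture. Of these 8 libraries, 4 were labelled 2iL, a serum-free medium with LIF and inhibitors of Mek and Gsk3, and 4 were labelled as grown for 48 h in medium without the inhibitors and LIF. A Control of 8 libraries, 4 with each culture label, was used for comparison. All cells were of the 129/Ola background and grew on gelatin. In the Mta123∆ cells Mta1 was deleted on both alleles, most of the Mta2 gene was removed with Cas9 by deletion or by exchange for a drug resistance cassette, and Mta3 was deleted with Cre from floxed alleles. The Control line kept Mta2, had floxed Mta3 and carried at least 1 functional or floxed Mta1 allele with the other deleted, so a deleted Mta1 allele is shared by both genotypes. Each genotype was sequenced from 2 lines with 2 libraries of each line per culture, as the numbers 1_1, 1_2, 2_1 and 2_2 are read here, and values below are given in this order.

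Mouse ES cells in 2iL hold a naive pluripotent state. LIF acts through its receptor and the transcription factor Stat3, the Gsk3 inhibitor stabilises β-catenin and so relieves repression by Tcf7l1, and the Mek inhibitor blocks the ERK signal that FGF produces. When the inhibitors and LIF are withdrawn, naive transcription factors are silenced, a formative state with de novo DNA methyltransferases appears, and in N2B27 medium cells then move towards neuroectoderm. NuRD is known to limit the expression of genes in ES cells and to be needed for orderly exit from self-renewal. The MTA proteins hold the deacetylase part of the complex together and join it to the remodelling part.

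The culture labels need a caution that bears on every direction given here. The names of the deposited files give the opposite culture to the sample labels in all 16 libraries of both genotypes. Groups are therefore called the libraries labelled 2iL and the libraries labelled 48 h, and each change is given as labelled 2iL minus labelled 48 h on the log2 scale. By the file names the same number is 48 h minus 2iL. The naive factors, which mark 2iL culture, were at the higher level in the libraries labelled 48 h in both genotypes, so the data went against the labels. Exchanging the labels reverses each direction and leaves each size as it is.

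Total gene counts of the Mta123∆ libraries ran from 40819833 to 54279779, at which the spread between libraries and not counting error limits most values above 1 CPM. CPM is the count of a gene per 1000000 counts, after scaling of library totals. The mitochondrial share of counts was 11.5% to 15% in the Mta123∆ libraries labelled 2iL and 13.2% to 18.1% in those labelled 48 h, against 10.4% to 11.9% in Control, and its part in the results was not tested. Mta2, of which most exons were removed, gave 8.99, 8.01, 5.16 and 4.75 CPM over the Mta123∆ libraries labelled 2iL and 10.4, 9.54, 6.5 and 6.63 CPM in those labelled 48 h, against Control means of 122 ± 8.13 and 193 ± 7.56 CPM (SD, n = 4 each). Mta3 stood at 9.48 to 23.8 CPM over the 8 libraries and at 64.6 ± 8.62 and 41.0 ± 3.03 CPM in Control. Mta1 stood at 15.5 to 29.9 CPM against 41.6 ± 6.57 and 28.7 ± 6.12 CPM, and in each culture all Mta123∆ libraries lay below all Control libraries. A gene total counts the exons outside a deletion too. The summed level of 8 fibroblast genes was 7.85 to 15.3 CPM in the Mta123∆ libraries labelled 2iL and 8.90 to 15.9 CPM in those labelled 48 h, with 5 of the 8 under 1 CPM in each of these groups.

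The culture change was broad in the cells without MTA proteins. In edgeR's quasi-likelihood test with the replicate number as a block and Benjamini-Hochberg adjustment, 4262 genes of 21505 tested were higher in the libraries labelled 2iL (19.8%) and 4882 were lower (22.7%) at an adjusted p under 0.05. With an absolute log2 change above 1 as well, the thresholds of the study, 1293 were higher (6.01%) and 1367 were lower (6.36%). In Control, 6755 of 21240 genes were higher (31.8%) and 6810 lower (32.1%) by adjusted p, and 2881 (13.6%) and 2221 (10.5%) passed both thresholds. With ERCC spike-in scaling the balance in Control turned, to 3796 higher and 5925 lower by adjusted p and 2543 and 2743 past both thresholds. The Mta123∆ counts by adjusted p fell to 2288 higher and 2515 lower with ERCC scaling, 2155 and 2662 with no replicate block, and 1957 and 2540 with the libraries of each line summed. The list counts below use this threshold and are to be read beside the shares over all genes given here for each genotype. Libraries of a line may be technical repeats, so the p-values measure the spread between these libraries only. The median change over all genes tested was -0.0043 in Mta123∆ and -0.0047 in Control, and scaling to the ERCC spike-in RNAs moved it to 0.02 in Mta123∆ and -0.16 in Control. Changes below are relative to the first of these scalings. RNA from a whole culture cannot tell fewer cells of a kind from less RNA per cell.

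Of the genes higher past both thresholds in Control, 2490 were tested in both genotypes. Their median change was 1.73 in Control and 0.60 in Mta123∆, where 780 (31.3%) passed both thresholds in the same direction, 1319 (53%) passed by adjusted p, 1020 (41.0%) did not pass and 151 (6.06%) went the opposite way. Of the 2066 such genes lower in Control, the median was -1.73 in Control and -0.76 in Mta123∆. In Mta123∆, 781 (37.8%) passed both thresholds in the same direction and 1397 (67.6%) passed by adjusted p. A further 566 (27.4%) did not pass and 103 (4.99%) went the opposite way. The genes were chosen for large changes in Control, a choice that by itself favours a smaller value in other libraries. Read from the other side, 70.8% of the 1102 genes higher in Mta123∆ and 68.7% of the 1137 genes lower in it also passed both thresholds in the same direction in Control.

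**Figure D1:**
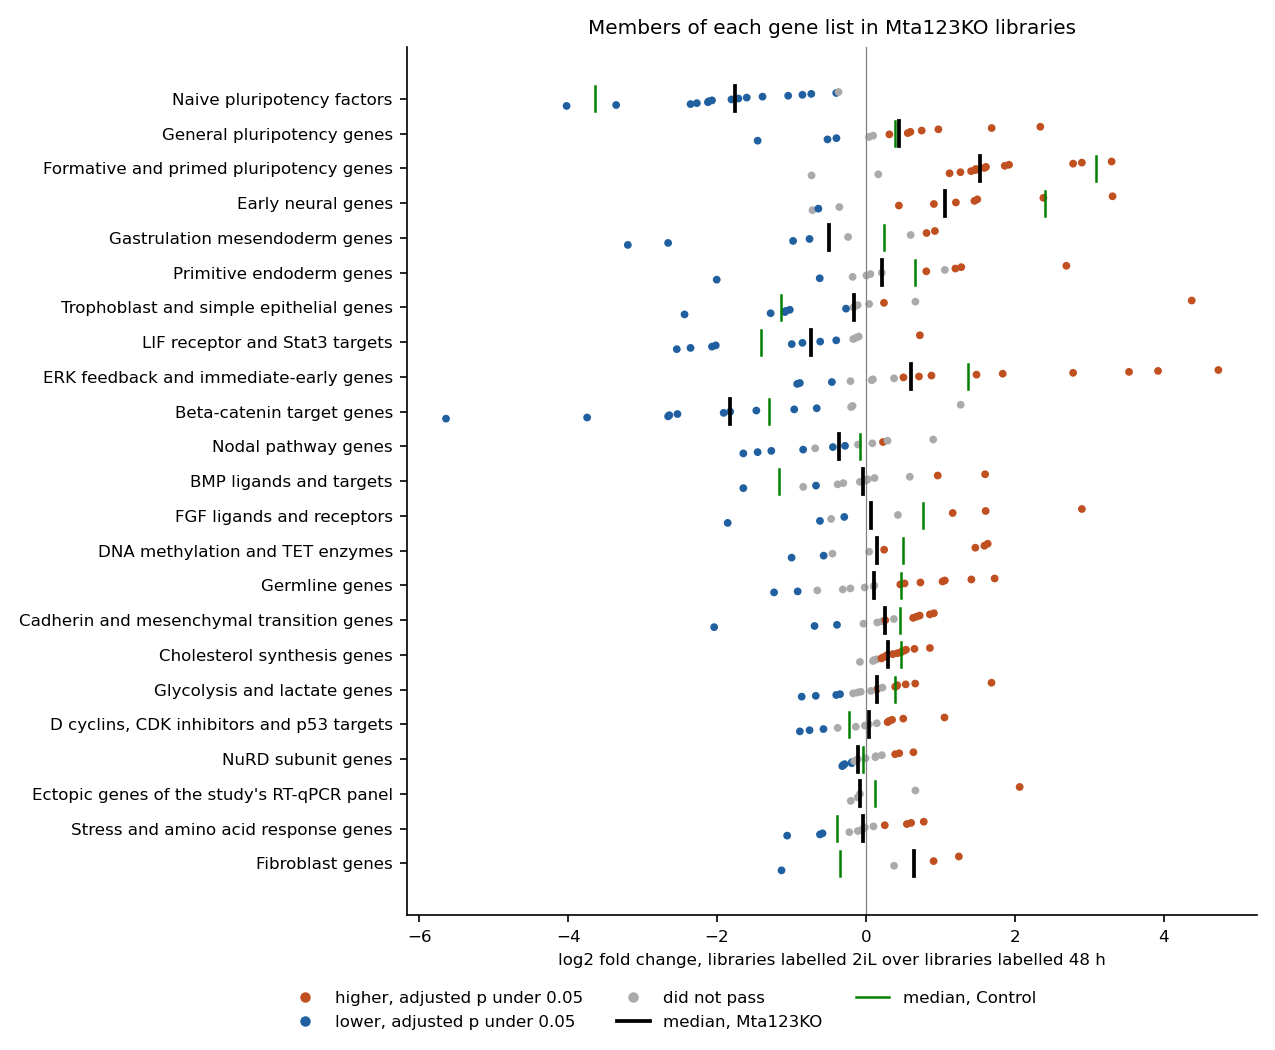
Change between cultures (log2, libraries labelled 2iL minus labelled 48 h) of the members of each gene list in Mta123∆, 1 point per gene tested, coloured by whether it was higher, lower or did not pass, with black and green bars for the list's median in Mta123∆ and in Control. The naive and β-catenin lists lie mostly below 0 and the formative and ERK lists mostly above 0.

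The naive pluripotency network responded nearly as a whole. Of 16 naive factors tested, 15 were lower in the libraries labelled 2iL, 0 were higher and 1 did not pass. The median change was -1.76, and in Control 15 were lower, 1 was higher and the median was -3.64. Nanog, the homeodomain factor at the head of the network, stood at 69.9, 67.4, 60.8 and 64.2 CPM in the libraries labelled 2iL and at 522, 543, 829 and 856 CPM in those labelled 48 h. The groups lay far apart, with a change of -3.35 (SE 0.17, adjusted p = 1.07e-05, edgeR), and the Control change was -3.83. The genotype by culture term, the Mta123∆ change minus the Control change, was 0.45 for Nanog (adjusted p = 0.0908, edgeR) and did not pass.

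Klf4, a Krüppel-like factor and Stat3 target, stood at 17.7, 22.3, 23.8 and 25.9 CPM against 82.2, 84.1, 97.0 and 112 CPM. All libraries labelled 2iL lay below all others, with a change of -2.07 (SE 0.07, adjusted p = 2.46e-06, edgeR). In Control Klf4 was at 4.63 ± 2.30 and 138 ± 14.4 CPM (SD, n = 4), a change of -4.96, and the genotype term was 2.88 (adjusted p = 2.21e-06, edgeR). The residual level of Klf4 in the group where it was low was thus several times that of Control.

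Tfcp2l1, a factor downstream of LIF, stood at 225, 213, 131 and 129 CPM in the libraries labelled 2iL and at 733, 701, 1039 and 1046 CPM in those labelled 48 h. It was lower by log2 2.35 on average (SE 0.26, adjusted p = 0.000295, edgeR), and line 2 changed more than line 1, at -2.99 against -1.71. Control went from 1793 ± 140 to 35.7 ± 5.37 CPM, and the genotype term was 3.28 (adjusted p = 6.98e-06, edgeR). Tbx3 showed the same order, with 15.4 to 24.3 CPM against 74.0 to 100 CPM, a change of -2.12 and a genotype term of 3.16. Esrrb, an orphan nuclear receptor, stood at 136 to 176 CPM against 420 to 628 CPM, a change of -1.71, with Control at 61.9 ± 13.3 CPM in the libraries labelled 2iL. Its term was 1.73.

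Prdm14, which restrains FGF signalling and DNA methylation in naive cells, had the largest change of the list. It stood at 0.445, 0.634, 1.37 and 1.86 CPM against 9.83, 11.3, 22.8 and 23.4 CPM, a change of -4.02 (SE 0.14, adjusted p = 2.65e-06, edgeR). The libraries of line 2 were higher than those of line 1 in both cultures, and the groups did not overlap. Its Control change was -5.98, with a term of 1.96. The lower members also took in Klf2 (-1.39), Klf5 (-0.85), Nr5a2 (-2.27), Dppa3 (-1.81), Tcl1 (-1.60), Dppa5a (-0.73) and Zfp42 (-1.04), the last of these with a Control change of -1.54 and a term of 0.48 that is below 1. Tdh, a threonine dehydrogenase of naive cells, was at 13.2, 13.1, 42.5 and 39.2 CPM against 96.0, 72.7, 130 and 115 CPM, a change of -2.11.

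Members of the naive list departed from this pattern in 2 ways. Nr0b1, an orphan nuclear receptor, stood at 5.47, 5.12, 14.8 and 15.1 CPM against 14, 11.2, 13.4 and 8.72 CPM, so the groups overlapped and its change of -0.37 did not pass (adjusted p = 0.415, edgeR). It was lower in line 1 (-1.25) and higher in line 2 (0.45). Gbx2, a LIF target that is high in Control libraries labelled 2iL (61.4 ± 14.1 against 19.7 ± 1.38 CPM), stayed between 4.48 and 10.2 CPM in all Mta123∆ libraries. Its change of -0.40 (adjusted p = 0.0370, edgeR) was opposite to the Control change of 1.62, with a term of -2.03, but the Mta123∆ call was lost without replicate 1_1 (-0.37, adjusted p = 0.105, edgeR), without 1_2 (-0.28) and without 2_2 (-0.42).

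Genes of pluripotency in general changed less uniformly. Of 12 tested, 7 were higher, 3 were lower and 2 did not pass, with a median of 0.44 (0.40 in Control). Pou5f1 (Oct4) stood at 243, 233, 366 and 353 CPM against 421, 385, 432 and 436 CPM, a change of -0.52. Sox2, its partner, was at 62.1, 57.5, 145 and 142 CPM against 90.8, 77.9, 191 and 163 CPM. The cultures overlapped because line 2 lay above line 1, and within lines the change was -0.49 and -0.29, against -1.63 in Control (term 1.22). Lin28a, an RNA-binding protein that blocks let-7 maturation, stood at 415, 397, 345 and 343 CPM against 71.6 to 74.9 CPM. Its change of 2.34 (SE 0.07, adjusted p = 1.78e-06, edgeR) was the largest increase of this list, with 3.50 in Control. Tdgf1 (Cripto), the co-receptor of Nodal, was lower at 46.3, 60.5, 86.9 and 93.4 CPM against 196, 166, 218 and 182 CPM, a change of -1.45 without overlap, while Control changed by 0.41 (term -1.88). Utf1, a chromatin-bound factor, was higher by 1.69, at 29.4 to 104 CPM against 12.7 to 19.7 CPM, with 3.65 in Control.

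Most formative genes were higher in the libraries labelled 2iL. Of 14 tested, 12 were higher, 0 were lower and 2 did not pass, and all 12 also passed the fold threshold. The higher ones were 10 with no replicate block, with summed libraries, or without replicate 2_1 or 2_2. In line 1 alone 10 were higher and 2, Foxd3 and Zic2, were lower. The median was 1.53 in Mta123∆ and 3.10 in Control, where all 14 were higher. Pou3f1 (Oct6), a POU factor of the formative epiblast, stood at 11.5, 8.24, 24.7 and 18.4 CPM in the libraries labelled 2iL and at 1.2, 1.73, 1.65 and 1.39 CPM in those labelled 48 h. The change was 3.30 (SE 0.25, adjusted p = 6.18e-05, edgeR). Control reached 72.6 ± 15.6 CPM from 1.46 ± 0.392 CPM, and the term was -2.36.

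The de novo DNA methyltransferases moved together. Dnmt3b stood at 225, 198, 240 and 231 CPM against 91.4, 90.9, 70.1 and 71.6 CPM, a change of 1.47 (SE 0.11, adjusted p = 5.19e-05, edgeR), while Control reached 875 ± 214 from 76.7 ± 5.13 CPM. The groups did not overlap and the libraries where Dnmt3b was low were near the Control level, whereas those where it was high were not. Dnmt3a was higher by 1.59 (328 to 493 CPM against 92.4 to 176 CPM), and Dnmt3l, the catalytically inactive cofactor, by 1.64 (385 to 576 CPM against 127 to 185 CPM). For Dnmt3l the Control libraries labelled 48 h held 7.13 ± 3.06 CPM, so the Mta123∆ level was already high there, and the term was -3.48. Of 8 DNA methylation and TET enzyme genes, 4 were higher, 2 were lower and 2 did not pass. The lower pair were the 5-methylcytosine dioxygenases Tet1 (-0.57) and Tet2 (-1.0), and the maintenance enzyme Dnmt1 had a change of 0.04 (adjusted p = 0.510, edgeR).

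Etv4, an Ets factor induced by ERK, was the formative gene whose term passed with a larger change in Mta123∆ than in Control. It stood at 40.9, 32.6, 57.5 and 62.1 CPM against 5.52, 3.88, 10.9 and 8.70 CPM, a change of 2.78 (SE 0.11), while Control went from 40.1 ± 10.6 to 89.6 ± 10.7 CPM, a change of 1.19. The term was 1.57 (adjusted p = 7.12e-06, edgeR). Otx2, the homeodomain factor of the primed epiblast, was at 25.8, 22.4, 44.5 and 37.6 CPM against 17, 16.6, 5.36 and 6.54 CPM. Its change of 1.61 was made of 0.52 in line 1 and 2.79 in line 2, and the call was lost without replicate 2_1 (1.16, adjusted p = 0.0582, edgeR) or 2_2 (1.29). Fgf5 stood at 0.297, 0.226, 1.56 and 0.715 CPM against 0.0445 to 0.175 CPM, a change of 2.90 that was 3.96 without replicate 1_2 and 2.12 without 2_1. Within lines the Fgf5 change was 1.21 in line 1, which did not pass, and 4.43 in line 2. Zic2 (0.17, adjusted p = 0.641, edgeR) and Foxd3 (-0.73, adjusted p = 0.207) did not pass and overlapped between cultures.

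Most early neural genes tested showed the same direction at lower levels. Of 14 listed, 10 passed the filter on low counts, of which 7 were higher, 1 was lower and 2 did not pass. The higher ones were 5 with no replicate block and 4 with summed libraries, and the lower ones were 0 in both. The summed level of the 14 genes overlapped between cultures, at 101 to 125 CPM against 81.0 to 132 CPM. The median was 1.06, against 2.40 in Control. Sox1, the earliest neuroectoderm marker, stood at 8.97, 8.38, 11 and 9.19 CPM in the libraries labelled 2iL and at 0.623, 0.834, 1.2 and 1.14 CPM in those labelled 48 h. The change was 3.31 (SE 0.16, adjusted p = 8.26e-06, edgeR) with no overlap. In Control Sox1 reached 48.5 ± 6.96 CPM, a change of 4.82, and the term was -1.55. Dll1, a Notch ligand, was at 14.9, 13.3, 12.8 and 12.5 CPM against 5.10, 3.66, 1.22 and 1.5 CPM, a change of 2.38, where Control went from 0.331 ± 0.162 to 33.0 ± 2.79 CPM (change 6.63, term -4.30). Pax6 stood at 0.806 to 1.61 CPM against 0.312 to 0.659 CPM, a change of 1.21. Its call was lost with summed libraries (1.16, adjusted p = 0.0597, edgeR) and in line 2 alone (0.76). Nes, which encodes nestin, stood at 21.2 to 32.2 CPM against 29.9 to 37.8 CPM and did not pass (adjusted p = 0.0889, edgeR). The lower member was Tubb3, at 24.1 to 29.8 CPM against 30.8 to 61.4 CPM (-0.64, Control -0.79).

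**Figure D2:**
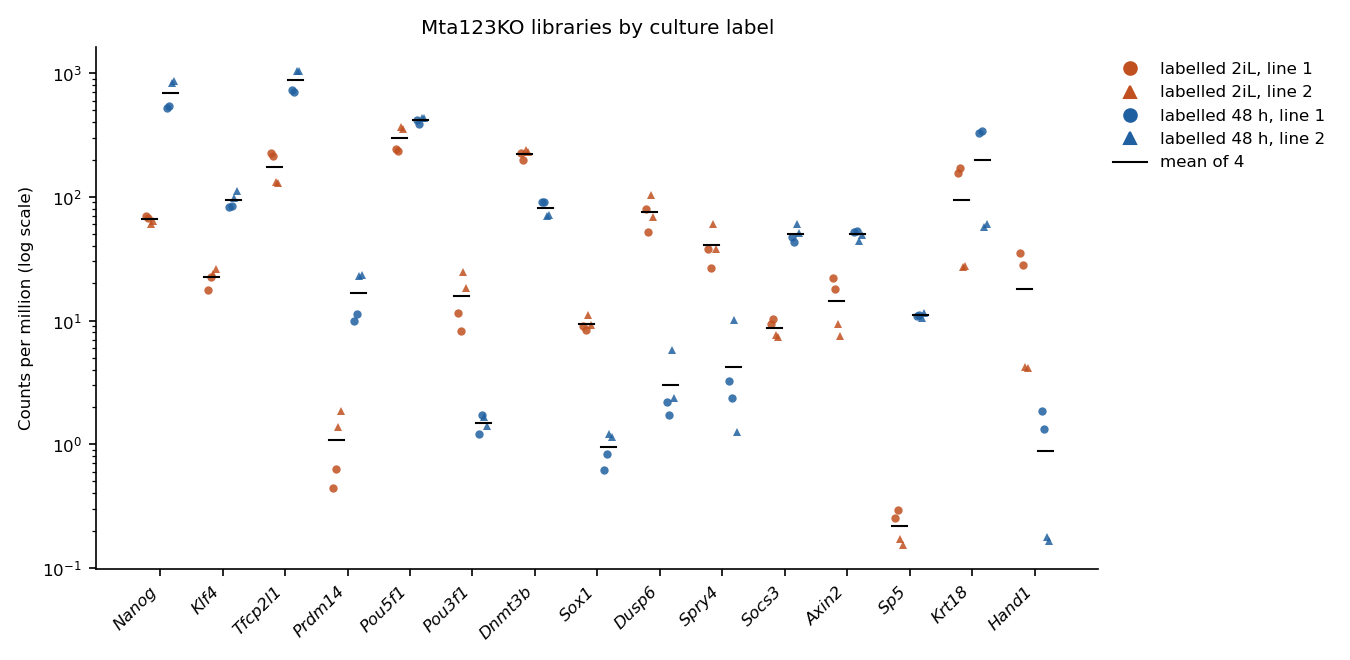
Level of 15 genes in each Mta123∆ library (CPM, log axis), coloured by culture label, with circles for line 1, triangles for line 2 and a bar at the mean of the 4 libraries. Nanog lies between 60.8 and 69.9 CPM in the libraries labelled 2iL and between 522 and 856 CPM in those labelled 48 h.

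The 3 signals of 2iL medium were read through fixed lists of target genes. For LIF, 8 of 12 members were lower, 1 was higher and 3 did not pass (median -0.73, Control -1.4). The lower ones were 6 with no replicate block. This list shares 3 genes with the naive list, Klf4, Tfcp2l1 and Gbx2. Socs3, the feedback inhibitor that Stat3 induces, stood at 9.37, 10.2, 7.62 and 7.35 CPM in the libraries labelled 2iL and at 47.0, 43.2, 60.1 and 51.1 CPM in those labelled 48 h. The change of -2.54 (SE 0.15, adjusted p = 2.07e-05, edgeR) was close to the Control change of -2.32, from 46.1 ± 7.07 to 9.19 ± 1.62 CPM, and the term of -0.24 did not pass (adjusted p = 0.351, edgeR). Stat3 itself changed by -0.85 (56.3 to 73.2 CPM against 108 to 125 CPM) and in Control by -2.18, a term of 1.31. Bcl3, an IκB family member that is induced by LIF, changed by -2.02, with 1.86 to 2.81 CPM against 8.05 to 10.5 CPM, and by -4.33 in Control (term 2.30). Lifr, the LIF receptor, stood at 20.1, 23.9, 61.1 and 65.5 CPM against 60.1, 48.4, 102 and 104 CPM. The ranges of its cultures overlapped because the lines differed, and within the block the change was -1.0. Il6st (gp130), the shared signalling chain, changed by -0.61. Pim1, a kinase gene, was the member that was higher, at 61.0 to 90.4 CPM against 41.4 to 50.03 CPM (0.73).

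A STAT motif, TTCNNNGAA read on either strand, was searched in 300-base windows around the transcription starts given by RefSeq, from 250 bases before to 50 after the start. It occurs in 8.3% of 32851 such windows and in 9.55% of genes with a window. Of the 12 LIF list genes with a window 1 held it (8.33%), no more than over all genes, and of the 9 β-catenin list genes with a window 2 did. The LIF list gene is Socs3, which is shown because its change was the closest to Control among the Stat3 targets described. The window lies at chr11:117969317-117969616 on the minus strand (GRCm38.p6), and capitals mark the motif.
Socs3: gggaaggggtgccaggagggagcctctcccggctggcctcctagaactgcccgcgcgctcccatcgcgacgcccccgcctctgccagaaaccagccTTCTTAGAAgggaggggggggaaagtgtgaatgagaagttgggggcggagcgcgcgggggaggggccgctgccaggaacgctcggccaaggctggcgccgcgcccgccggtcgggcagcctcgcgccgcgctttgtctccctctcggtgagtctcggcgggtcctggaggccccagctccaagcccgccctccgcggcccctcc

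The ERK read-outs moved the opposite way. Of 16 feedback and immediate-early genes, 9 were higher, 3 were lower and 4 did not pass, with a median of 0.61 (1.38 in Control). Dusp6, the cytoplasmic ERK phosphatase that ERK itself induces, stood at 79.2, 52.2, 103 and 69.3 CPM in the libraries labelled 2iL and at 2.19, 1.73, 5.79 and 2.38 CPM in those labelled 48 h. The change of 4.74 (SE 0.17, adjusted p = 2.65e-06, edgeR) exceeded that in Control, 3.61, and the term was 1.09 (adjusted p = 0.00155, edgeR). In Control the level was higher in both cultures, at 168 ± 33.7 and 13.8 ± 3.57 CPM. Dusp4, a nuclear phosphatase of the same family, stood at 25.2, 18.6, 63.0 and 49.8 CPM against 2.19, 1.89, 3.52 and 2.07 CPM. Its change of 3.92 and the Control change of 4.24 gave a term of -0.32 (adjusted p = 0.308, edgeR). Spry4, an inhibitor of receptor tyrosine kinase signalling, changed by 3.54 in both genotypes (term -0.08, SE 0.60, adjusted p = 0.927, edgeR). The libraries labelled 48 h spread widely, at 1.2 to 10.1 CPM in Mta123∆ and 0.47 to 9.47 CPM in Control. An equal change is thus not shown.

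Other members of the ERK list were not in step. Spry2 was lower, at 37.1, 39.9, 48.3 and 44.0 CPM against 56.3, 56.1, 64.4 and 54.8 CPM (-0.46), and Etv5 did not pass (-0.21, adjusted p = 0.0690, edgeR). Egr1, an immediate-early zinc-finger gene, stood at 7.0, 7.38, 11.4 and 12.5 CPM in the libraries labelled 2iL and at 2.49, 31.9, 1.76 and 23.2 CPM in those labelled 48 h. The second library of each line was the high one, the groups overlapped, and no culture change could be called (adjusted p = 0.929, edgeR), whereas Control changed by 3.47. Ccnd1 (cyclin D1) was lower without overlap, at 78.4 to 109 CPM against 144 to 208 CPM, a change of -0.89 (SE 0.05, adjusted p = 1.46e-05, edgeR), where Control changed by 0.28 (term -1.19).

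Of the 8 ERK list genes with a RefSeq window, Dusp5 was the one with CArG boxes, the site of serum response factor, which Ets factors that are ERK substrates help to bind. The box, whose inner bases are A or T, occurs in 1.63% of all windows and in 1.81% of genes with a window. It occurs in 2 of the 9 β-catenin list genes with a window, and Dusp5 held 2 boxes side by side. Dusp5 stood at 23.1, 24.6, 17.2 and 16.9 CPM against 13.2, 16.3, 12.6 and 8.42 CPM. It was higher by 0.71 without overlap, and by 1.98 in Control. The window lies at chr19:53528895-53529194 on the plus strand (GRCm38.p6), with both boxes in capitals.
Dusp5: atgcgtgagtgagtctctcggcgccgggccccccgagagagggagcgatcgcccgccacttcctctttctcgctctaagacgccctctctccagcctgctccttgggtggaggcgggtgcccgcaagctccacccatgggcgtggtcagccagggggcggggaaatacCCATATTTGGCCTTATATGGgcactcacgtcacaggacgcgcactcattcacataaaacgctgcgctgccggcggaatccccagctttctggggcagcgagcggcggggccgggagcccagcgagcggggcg

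Targets of β-catenin fell in the libraries labelled 2iL. Of 13, 10 were lower, 0 were higher and 3 did not pass, with a median of -1.82 against -1.30 in Control. The lower ones were 7 with no replicate block. Sp5, a zinc-finger factor and direct target, stood at 0.255, 0.294, 0.171 and 0.152 CPM against 10.8, 11.1, 10.6 and 11.5 CPM. The 4 libraries within each culture were close to each other and the change was -5.64 (SE 0.18, adjusted p = 2.46e-06, edgeR). Control went further, from 31.3 ± 3.80 to 0.0724 ± 0.0419 CPM, a change of -8.70, with a term of 3.04. Axin2, the feedback inhibitor of the pathway, was at 22.2, 18.1, 9.41 and 7.50 CPM against 52.3, 53.3, 44.0 and 48.8 CPM, a change of -1.91 against -3.05 in Control (term 1.13, adjusted p = 0.0154, edgeR). Cdx1, a caudal homeobox gene, changed by -2.53, with 17.5, 17.1, 2.88 and 3.53 CPM in the libraries labelled 2iL against 49.4, 59.3, 34.6 and 45 CPM. In Control it fell to 0.784 ± 0.233 CPM.

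Other members of the β-catenin list changed as follows. Rnf43, a ubiquitin ligase that removes Frizzled receptors, was at 1.08, 1.25, 0.758 and 0.672 CPM against 10.9, 11.2, 2.14 and 2.97 CPM, a change of -2.64, whereas Control was under 1 CPM in both cultures (term -1.79). Its paralogue Znrf3 changed by -0.66, against -0.42 in Control, and its term of -0.26 did not pass (adjusted p = 0.175, edgeR). Lgr5, the R-spondin receptor, stood at 0.0906 to 0.196 CPM against 3.37, 6.52, 0.423 and 0.787 CPM. Line 1 was the high one among the libraries labelled 48 h. The change of Lgr5 was -3.74 (-5.33 in line 1, -1.63 in line 2), -2.76 without replicate 1_2 and -4.34 without 2_1. In Control Lgr5 was at 0.317 ± 0.198 and 0.139 ± 0.107 CPM, a change of 1.19 that did not pass (adjusted p = 0.122, edgeR). The genotype term was -4.94, and levels under 1 CPM limit it. Notum, a secreted enzyme that inactivates Wnt, changed by -1.47, and by -3.61 in Control. With no replicate block its Mta123∆ change of -1.24 did not pass (adjusted p = 0.0822, edgeR). Nkd1, an intracellular inhibitor, changed by -0.96, and by 1.31 in Control. Lef1 did not pass in Mta123∆ and is described with the lines.

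The TCF/LEF motif CTTTGAT on either strand occurs in 3.73% of the RefSeq windows and in 4.29% of genes with a window. Of the 9 β-catenin list genes with a window 2 held it, Sp5 and Tnfrsf19. The Sp5 window is shown because Sp5 had the largest change of the list, at chr2:70474673-70474972 on the plus strand (GRCm38.p6), with the motif in capitals.
Sp5: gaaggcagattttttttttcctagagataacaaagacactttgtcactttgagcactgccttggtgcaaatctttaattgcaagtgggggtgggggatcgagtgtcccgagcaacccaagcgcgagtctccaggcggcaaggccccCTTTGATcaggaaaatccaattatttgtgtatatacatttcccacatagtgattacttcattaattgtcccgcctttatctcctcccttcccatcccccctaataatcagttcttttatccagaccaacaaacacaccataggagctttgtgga

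The remaining signalling lists changed in parts. Over all genes 19.8% were higher and 22.7% lower in Mta123∆, and 31.8% and 32.1% in Control. Of 12 Nodal pathway genes 1 was higher, 6 were lower and 5 did not pass, against 6 higher and 6 lower in Control. Smad7, an inhibitory Smad, stood at 18.4 to 22.4 CPM against 51.6 to 86.5 CPM, a change of -1.65 (-1.68 in Control), and Pcsk6, a convertase that processes Nodal, changed by -1.27. Of 12 BMP ligands and targets, 2 were higher, 2 were lower and 8 did not pass, no more than the shares over all genes (19.8% and 22.7%), against 2 higher and 7 lower in Control. Bmp7 was among the former, at 19.2, 22.8, 9.41 and 10.7 CPM against 11.1, 9.70, 5.30 and 5.33 CPM, a change of 0.97 where Control changed by -2.39. Id2, an Id family target of BMP, stood at 18.9 to 75.4 CPM against 19.9 to 70.1 CPM with a change of 0.00 (adjusted p = 0.983, edgeR). Of 8 FGF genes tested of 10 listed, 3 were higher and 3 lower. Fgf4, the autocrine ligand of ES cells, was lower, at 12.4 to 44.1 CPM against 53.3 to 122 CPM (-1.86, Control -1.19), and the receptor gene Fgfr2 was higher, at 120 to 190 CPM against 59.9 to 79.6 CPM (1.17, Control 0.82).

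Genes of other lineages were measured as lists too, beside 19.8% higher and 22.7% lower over all genes. Of 13 trophoblast and simple epithelial genes 2 were higher, 6 were lower and 5 did not pass (median -0.17), and with no replicate block 1 was higher and 2 were lower. The keratin pair Krt8 and Krt18 stood far above Control in both cultures. Krt18 stood at 155, 171, 26.8 and 27.6 CPM against 331, 343, 57.4 and 59.8 CPM, with line 1 above line 2 throughout. The change within lines was -1.04 and -1.10, and -1.08 over both (SE 0.05, adjusted p = 7.43e-06, edgeR). Control stood at 7.24 ± 1.52 and 2.23 ± 0.287 CPM and changed by 1.70, so the term was -2.80. Krt8, at 28.5 to 350 CPM over the 8 libraries against Control means of 5.14 and 5.83 CPM, changed by -1.09 and Krt7 by -1.28. Without the block, the spread between lines takes the calls of Krt7 (adjusted p = 0.334), Krt8 (0.381) and Krt18 (0.413) away (edgeR). Hand1, a bHLH factor of trophoblast and extra-embryonic mesoderm, was among the largest increases of all genes, at 35.1, 28.2, 4.23 and 4.12 CPM against 1.87, 1.34, 0.178 and 0.165 CPM. Its change of 4.38 (SE 0.11, adjusted p = 1.78e-06, edgeR) compares with 3.68 in Control, where it stayed under 1 CPM (term 0.67, adjusted p = 0.501, edgeR). Tfap2c, an AP-2 factor, stayed at 40.7 to 77.9 CPM against 37.4 to 62.0 CPM in Mta123∆ while in Control it went from 75 ± 9.93 to 4.70 ± 2.32 CPM. Its term was 4.30 (adjusted p = 3.33e-07, edgeR), and the small Mta123∆ change of 0.24 lost its call without replicate 1_1 (0.22, adjusted p = 0.0922, edgeR) or 1_2 (0.17).

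Among 11 primitive endoderm genes 4 were higher, 2 were lower and 5 did not pass, beside 19.8% higher and 22.7% lower over all genes. Sox7 stood at 4.12, 3.42, 3.13 and 2.71 CPM against 0.785, 0.548, 0.467 and 0.311 CPM, a change of 2.69 where the Control change was -0.04. The collagen genes Col4a1 (1.2) and Col4a2 (1.28) of the basement membrane were higher, and Lama1, a laminin chain of the same membrane, was lower (-2.0). Gata6, the factor that defines primitive endoderm, was under 1 CPM in all 8 libraries (change 0.06, adjusted p = 0.872, edgeR). In Control it changed by 3.79, at 3.6 ± 3.1 against 0.24 ± 0.13 CPM (SD, n = 4). Dab2 did not pass in Mta123∆ (-0.18) and changed by 2.43 in Control. Of the genotype by culture terms of this list, 2 passed above 0 and 3 below by adjusted p. Of 13 gastrulation genes 8 were tested, with 2 higher, 4 lower and 2 not passing. With summed libraries 10 were tested, of which 1 was higher and 2 were lower. The higher ones were Wnt3 (0.82) and Eomes, at 8.74 to 12.8 CPM against 3.76 to 7.9 CPM (0.93), where Control changed by -1.48. The Eomes call was lost without replicate 1_1 (0.66, adjusted p = 0.0508, edgeR) or 1_2 (0.76). T (brachyury) was among the lower ones at 0.108 to 0.636 CPM against 1.30 to 4.08 CPM (-2.66, Control -3.38). Of 15 germline genes 7 were higher (4 with no replicate block), 2 were lower and 6 did not pass, with Ddx4, a germ cell RNA helicase, at 31.8 to 40.3 CPM against 13.7 to 21.5 CPM (1.06). Of 13 cadherin and mesenchymal transition genes 6 were higher, 3 were lower and 4 did not pass, and the higher ones were 1 with no replicate block or with summed libraries. Fn1 (fibronectin) was lower at 141 to 243 CPM against 622 to 843 CPM (-2.04, Control -1.92), Cdh1 by log2 0.69, and Cdh2 was higher by 0.91.

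Metabolic and housekeeping programmes changed little in size. Their counts stand beside 19.8% higher and 22.7% lower over all genes. All 17 cholesterol synthesis genes were tested and 13 were higher, 0 lower and 4 did not pass, with a median of 0.29 (0.47 in Control), and none passed the fold threshold. The higher members were 5 with ERCC scaling, 4 with no replicate block and 7 with summed libraries. Lss, which makes lanosterol, had the largest change, 0.86, at 127, 134, 219 and 202 CPM against 76.3, 69.4, 119 and 110 CPM. Of 18 glycolysis and lactate genes 7 were higher and 4 lower (2 and 1 with no replicate block, 3 and 2 with ERCC scaling). Slc16a3, the lactate exporter Mct4, was higher by 1.69 (50.2 to 93.3 CPM against 14.6 to 26.1 CPM), and Tpi1, triosephosphate isomerase, was lower by log2 0.86 where Control changed by 0.47. Of 13 D cyclins, CDK inhibitors and p53 targets 5 were higher and 3 lower, and the higher ones were 1 with ERCC scaling and 2 with summed libraries. Mdm2, the p53 ubiquitin ligase and p53 target, stood at 590, 459, 332 and 348 CPM against 247, 232, 175 and 167 CPM, a change of 1.06 (SE 0.07, adjusted p = 2.56e-05, edgeR). In Control it was at 97.8 ± 17.8 and 109 ± 19.2 CPM, which did not pass (adjusted p = 0.0603, edgeR), and the term was 1.2. Cdkn1a (p21), another p53 target, changed the other way, by -0.76.

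Of 13 stress and amino acid response genes 4 were higher, 3 were lower and 6 did not pass, beside 19.8% higher and 22.7% lower over all genes, and with no replicate block 1 was higher and 2 were lower. The metallothionein gene Mt1, which binds zinc and copper, was at 547, 632, 849 and 906 CPM against 340, 379, 485 and 491 CPM, a change of 0.78 (SE 0.05, adjusted p = 3.76e-05, edgeR). In Control it changed by -0.86, with a term of 1.62. Asns, asparagine synthetase, was lower by log2 1.06. Of 15 NuRD subunit genes 3 were higher, 5 lower and 7 did not pass, none with an absolute change above 1. Over all genes 19.8% were higher and 22.7% lower, and with no replicate block, with ERCC scaling or with summed libraries 1 was higher and 0 were lower. The ectopic genes that the study assayed by RT-qPCR in these cells were 5, of which 1 was higher and 4 did not pass. That list was chosen by the study on cells of this genotype and is not independent evidence. Its higher member, Hcn4, a pacemaker channel gene, stood at 18.2, 21.5, 6.38 and 6.83 CPM against 3.07, 3.2, 2.18 and 2.77 CPM, a change of 2.07.

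The genes with the largest changes in Mta123∆, by rule the 10 protein-coding genes in each direction with a mean of 5 CPM or more where they were higher and with 4 of 4 same-numbered pairs changing alike, included few list members. Among the higher ones, Csn3, which encodes κ-casein, stood at 2.93, 2.81, 8.21 and 11.1 CPM against 0.0366 to 0.111 CPM, a change of 6.54 in Mta123∆ and of 6.54 in Control (term -0.01, adjusted p = 0.992, edgeR). Without replicate 2_2 its change was 5.88. Fbp1, fructose-bisphosphatase of gluconeogenesis, stood at 42.0, 33.1, 14.3 and 13.5 CPM against 0.623, 0.417, 0.556 and 0.421 CPM. This change of 5.55 (SE 0.25, adjusted p = 6.52e-06, edgeR) had no counterpart in Control, where Fbp1 was at 0.390 ± 0.265 and 0.357 ± 0.101 CPM (term 5.48, adjusted p = 3.27e-05, edgeR). The others were Gfra1 (4.93), a co-receptor of GDNF, Dusp6 (4.74), Hand1 (4.38), the lipoxygenase gene Alox15 (4.14), the cytokine gene Il33 (4.05), the chaperone gene Clgn (3.98), Dusp4 (3.92) and the troponin gene Tnnt3 (3.85). Tnnt3 stood at 37.5, 36.3, 5.82 and 7.70 CPM against 0.601 to 2.30 CPM and was at or below 0.111 CPM on average in Control.

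Among the lower genes, Gjb2, which encodes the gap junction protein connexin 26, had the largest change. It stood at 0.700, 1.74, 0.391 and 0.412 CPM against 72.3, 122, 16.8 and 20.9 CPM, a change of -6.10 (SE 0.17, adjusted p = 1.78e-06, edgeR). In Control Gjb2 was at 0.624 ± 0.299 and 0.318 ± 0.0986 CPM, so the difference between the genotypes lay in the libraries labelled 48 h (term -7.02, adjusted p = 2.15e-07, edgeR). Slc22a3, an organic cation transporter gene, changed by -6.01 from 9.88, 15.4, 2.47 and 2.54 CPM to 0.0433 to 0.204 CPM, and was near 0 in both Control groups. Htr5a, a serotonin receptor gene, stood at 0.367 to 0.905 CPM against 41.7, 40.3, 27.2 and 37.7 CPM. Its change of -5.97 was like the Control change of -6.17 (term 0.19, adjusted p = 0.739, edgeR), although the Control level in the libraries labelled 48 h was 4.4 ± 1.95 CPM. Foxd1, a forkhead factor, changed by -4.93 and in Control by -2.34 (term -2.59), and AA467197 by -4.70. The rest were Sp5 and 4 entries of linked metabolic function, of which Gm5096 cannot be told apart from Bhmt.

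These were Dmgdh (-4.66), Gm5096 (-4.53), Bhmt2 (-4.52) and Bhmt (-4.4). Bhmt and Bhmt2 encode methyltransferases that pass a methyl group to homocysteine, and Dmgdh oxidises dimethylglycine, the product of Bhmt, in mitochondria. Bhmt stood at 1.04, 0.928, 0.733 and 1.52 CPM in the libraries labelled 2iL and at 19.9, 21.5, 21.6 and 25.8 CPM in those labelled 48 h. Dmgdh stood at 1.61, 1.45, 1.0 and 1.63 CPM against 32.5, 34.4, 35.5 and 41.4 CPM. Bhmt2 stood at 0.636, 0.453, 0.562 and 0.585 CPM against 10.7, 11.8, 13.7 and 15.9 CPM. The 4 libraries of a culture were close to each other for all 3, in both lines. In Control the changes were larger, at -6.61, -6.54 and -6.33, but the libraries labelled 48 h varied more, with Bhmt at 15.1 ± 12.5 CPM, Dmgdh at 16.6 ± 10.5 CPM and Bhmt2 at 6.24 ± 4.14 CPM (SD, n = 4). The terms were 2.18, 1.86 and 1.78.

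The 3 genes are neighbours on chromosome 13 (GRCm38). Bhmt lies at chr13:93616675-93637961 and Bhmt2 at chr13:93655720-93674302, both on the minus strand, and Dmgdh at chr13:93674433-93752833 on the plus strand. The antisense genes Gm15622, inside Bhmt, and AW495222, inside Dmgdh, changed by -4.34 and -5.06. The strand setting of the counting is not given in the sources used here, so reads of an antisense gene and of the gene it lies in cannot be told apart. The genes on either side did not share the change. Jmy changed by -0.26 (adjusted p = 0.0136, edgeR) and Arsb by -0.27 (adjusted p = 0.289). Gm5096, on another chromosome, shares 76.4% of its 50-base stretches with Bhmt, so its counts and those of Bhmt cannot be told apart, whereas Bhmt2 shares 0.416%.

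**Figure D3:**
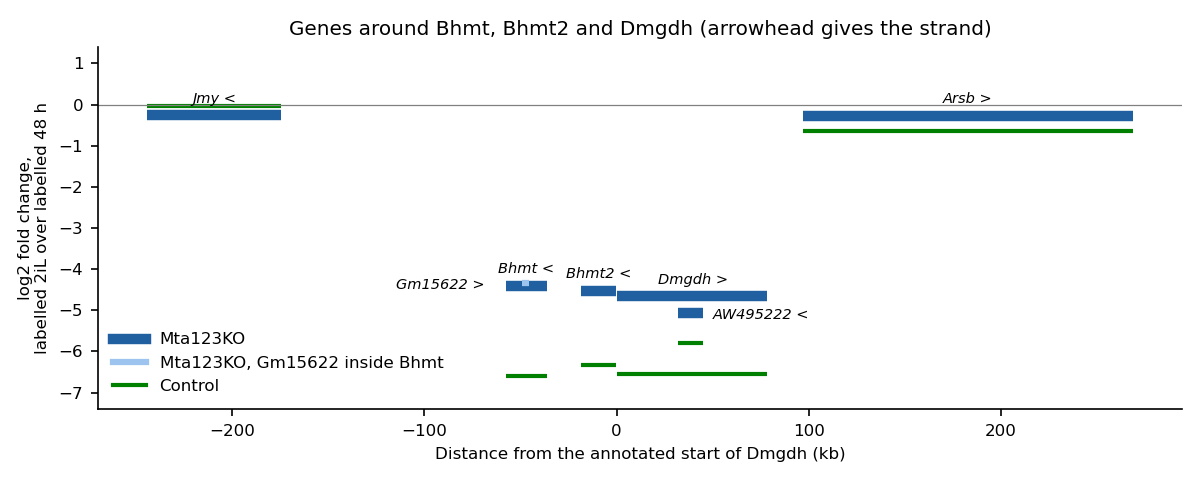
Change between cultures (log2, libraries labelled 2iL minus labelled 48 h, vertical axis) of the genes around Dmgdh, drawn as thick bars for Mta123∆ and thin bars for Control over their extent in kb from the Dmgdh start. In Mta123∆, Bhmt, Bhmt2, Dmgdh and the antisense genes inside them lie between -5.06 and -4.34, and the flanking genes Jmy and Arsb near 0.

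Bhmt2 and Dmgdh are transcribed away from each other, with 130 bases between their annotated starts, and the RefSeq window of Dmgdh covers both. It is shown because it holds the start region that the pair share, at chr13:93674186-93674485 on the plus strand (GRCm38.p6). Capitals mark the bases between the starts.
Dmgdh: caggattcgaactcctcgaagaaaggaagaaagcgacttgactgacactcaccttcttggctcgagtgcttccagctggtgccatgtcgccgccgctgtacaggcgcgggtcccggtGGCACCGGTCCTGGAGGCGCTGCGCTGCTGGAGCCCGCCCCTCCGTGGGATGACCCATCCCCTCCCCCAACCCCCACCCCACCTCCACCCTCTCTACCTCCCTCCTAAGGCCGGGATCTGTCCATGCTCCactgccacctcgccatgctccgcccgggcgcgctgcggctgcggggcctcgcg

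Whether a gene changed differently without MTA proteins was tested with the genotype by culture term over all 16 libraries. At an adjusted p under 0.05, 4093 of 22973 genes (17.8%) had a term above 0 and 4520 (19.7%) a term below 0. With an absolute term above 1, these were 1606 (6.99%) and 2182 (9.5%), and with ERCC scaling, which moved the median term from -0.0015 to 0.19, they were 2059 and 1731. Of the 16 naive factors 14 had a term above 0 and 1 below, that is, a smaller fall in Mta123∆. Of the 14 formative genes 1 had a term above 0 and 9 below. Most members of both lists thus changed less than in Control, with Gbx2 and Etv4 as the members whose terms passed with the other sign, while the LIF list (6 above, 2 below of 12), the ERK list (2 above, 6 below of 16) and the β-catenin list (6 above, 4 below of 13) were mixed.

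**Figure D4:**
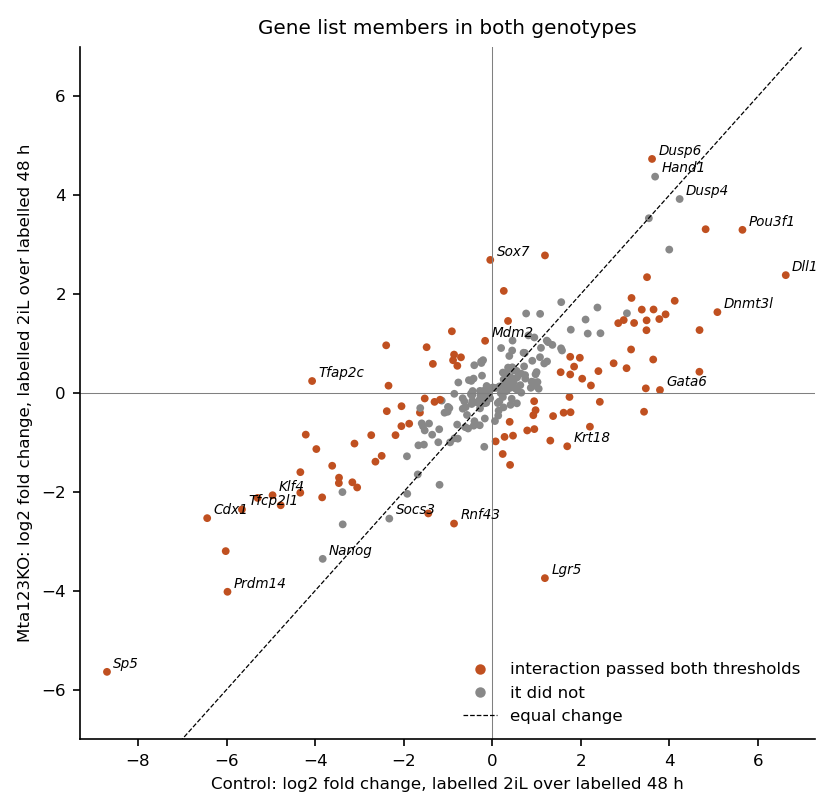
Change between cultures (log2, libraries labelled 2iL minus labelled 48 h) in Control on the horizontal axis and in Mta123∆ on the vertical axis for members of the gene lists, 1 point per gene, coloured where the genotype by culture term passed both thresholds, with a dashed line of equal change. Klf4 (-4.96 and -2.07) and Dnmt3l (5.09 and 1.64) lie nearer to 0 in Mta123∆, and Etv4 (1.19 and 2.78) lies farther from it.

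The largest terms, by rule the 5 protein-coding genes on each side with a mean of 5 CPM or more in the highest of the 4 groups of genotype and culture, belonged to genes outside the lists. Lrrc15, which encodes a leucine-rich repeat membrane protein, stood at 53.4, 61.5, 14.7 and 24.6 CPM against 21.1, 24.1, 8.52 and 9.28 CPM in Mta123∆ (1.23), and went from 16.4 ± 1.88 to 0.202 ± 0.124 CPM in Control (-6.32). Its term was 7.53 (adjusted p = 1.42e-08, edgeR). The chloride transporter gene Slc26a9 changed by 3.0 against -2.83 in Control (term 5.81), Cnga4, a cyclic nucleotide-gated channel subunit, by -2.56 against -7.88 (term 5.31), and Fbp1 is given above. Srarp had 0 counts in every Control library labelled 2iL and 5.30 to 7.60 CPM in those labelled 48 h, at least 78.9-fold higher against a floor of 3 counts per library. In Mta123∆ it stood at 0 to 0.127 CPM against 0.178 to 1.97 CPM and did not pass the filter on low counts.

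On the other side, Enpp2 (autotaxin), which makes lysophosphatidic acid, was at 0.385 to 1.19 CPM against 0.0668 to 0.263 CPM in Mta123∆ (1.92), and Control reached 21.2 ± 10.8 CPM (9.06, term -7.11). The Mta123∆ call of Enpp2 was lost without replicate 2_1 (1.53, adjusted p = 0.0639, edgeR) or 2_2 (1.5). Sema6a, a semaphorin gene, changed in opposite directions, at 6.76 to 9.89 CPM against 14.4 to 20.9 CPM in Mta123∆ (-1.07) and 51.6 ± 8.82 against 2.01 ± 0.705 CPM in Control (4.69, term -5.79). Gjb2 and Slc22a3 also fell on this side, and for Slc22a3 no term is given because its Control groups hold almost no counts.

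A separate test asked where the 2 Mta123∆ lines differed in their culture change. The line by culture term, the change in line 2 minus that in line 1, passed both thresholds above 0 in 301 genes (1.4%) and below 0 in 287 (1.33%) of 21505. With ERCC scaling, which moved the median term to -0.16, these were 151 and 256. Leaving out replicate 1_1, 2_1 or 2_2 left 112, 172 and 187 genes below 0, and the lone library of a line is then taken to vary like the others. Lef1, a nuclear partner of β-catenin, was at 3.01, 4.01, 28.1 and 23.1 CPM in the libraries labelled 2iL and at 6.44, 4.50, 3.16 and 3.15 CPM in those labelled 48 h. It fell by log2 0.64 in line 1 and rose by 3.03 in line 2 (term 3.65, adjusted p = 1.24e-06, edgeR), and in Control, at 98.9 ± 11.3 against 3.90 ± 1.13 CPM, it changed by 4.69.

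Several formative genes had a line term above 0. The term was 2.25 for Otx2 (0.52 in line 1, 2.79 in line 2), 1.17 for Dnmt3a (1.01 and 2.20), 1.07 for Pou3f1 (2.75 and 3.84), 2.30 for Foxd3, which was lower in line 1 (-2.14) and had a change of 0.18 in line 2, and 1.25 for Zic2, which was lower in line 1 (-0.48) and higher in line 2 (0.79). Dll1 had a term of 1.5. Naive factors were divided, with terms of -0.81 for Nanog (-2.95 and -3.75) and -1.30 for Tfcp2l1, but 1.68 for Nr0b1 and 1.09 for Tdh. The β-catenin targets were divided too, with -1.08 for Axin2 and -1.99 for Cdx1 (-1.65 and -3.62) but 1.61 for Notum, and the laminin gene Lama1 had a term of -1.55.

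By the rule for these terms, a mean of 5 CPM or more in the highest of the 4 groups of genotype and culture, Control included, the genes with the largest line terms above 0 were Cxcl12, Enox1, Lef1, Bcl11a and Enpp3. Enox1, which encodes a surface NADH oxidase, stood at 8.14, 8.65, 60.5 and 69.0 CPM against 13.2, 9.76, 7.92 and 6.13 CPM (term 3.65). Enpp3, an ectonucleotidase gene, stood at 6.43, 6.59, 42.1 and 44.1 CPM against 0.912 to 1.81 CPM (term 2.80), where its change of 3.69 was 3.08 without replicate 2_1. Bcl11a, a zinc-finger repressor gene, was at 0.700, 0.611, 2.83 and 1.91 CPM against 0.156 to 0.531 CPM (term 2.99), and its change of 2.03 lost its call without replicate 2_1 (1.39, adjusted p = 0.0832, edgeR) or 2_2 (1.68). In each of these the libraries of line 2 labelled 2iL were the high ones. Cxcl12, a chemokine gene, was under 0.5 CPM in all 8 libraries, and line 2 labelled 48 h held at most 0.0183 CPM, so no term is given.

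The largest terms below 0 were those of Dppa1 (-2.66), Tmem132c (-2.09), Cdx1, Sh2d4b (-1.98) and Pramef17 (-1.98). Dppa1, a gene of the early embryo, stood at 1.99, 3.21, 0.196 and 0.0867 CPM against 15, 17.4, 4.90 and 6.04 CPM. It was lower in both lines and more so in line 2. Pramef17 stood at 2.49 to 2.91 CPM in the libraries labelled 2iL and at 5.47, 5.46, 19.4 and 21.4 CPM in those labelled 48 h. For Tmem132c the lines differed in direction, with 1.62 in line 1 and -0.46 in line 2.

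**Figure D5:**
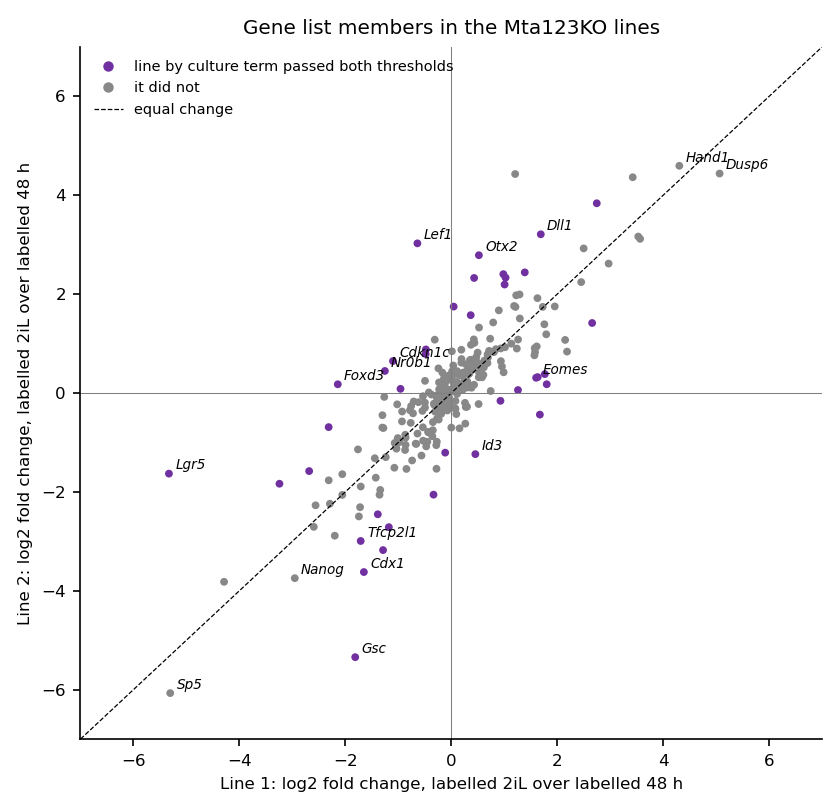
Change between cultures in Mta123∆ (log2, libraries labelled 2iL minus labelled 48 h) in line 1 on the horizontal axis and in line 2 on the vertical axis for members of the gene lists, 1 point per gene, coloured where the line by culture term passed both thresholds, with a dashed line of equal change. Lef1 (-0.64 and 3.03) and Otx2 (0.52 and 2.79) lie above the line, and Nr0b1 (-1.25 and 0.45) crosses 0.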

How the data were processed

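RNA-seq counts of 16 libraries were analysed, 8 of Mta123∆ and 8 of Control, and the 18 libraries of single mutants were not used. Per the labels and the study's methods, the authors trimmed reads with Trim Galore!, aligned them to GRCm38/mm10 with Tophat and ran featureCounts on Ensembl annotation, and deposited the raw counts per gene. The strand setting and the treatment of reads with several alignments are not given in the sources used here. Total counts of these libraries ran from 37855790 to 57602285. Of 48709 genes, 48349 were matched to GENCODE names, and 92 ERCC spike-ins were kept apart.

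Counts were fitted in edgeR 4.0.16 (R 4.3.3) with TMM scaling, filterByExpr (minimum count 10), the quasi-likelihood test and Benjamini-Hochberg adjustment. The culture fits of each genotype held the replicate number as a block, as did the genotype by culture fit within each genotype, and the line fit compared the lines. Same-numbered Mta123∆ libraries deviated together from their group means (correlation 0.552 to 0.586), which reflects the line: within a line the correlation was -0.027 and 0.046. Alternatives are listed with their effects after the report. Groups came from the sample labels. The genes named are list members and those with the largest changes by the rules stated in the text; 1 gene that these rules name is not reported here. The comparison, the gene lists and these rules were chosen with earlier results of these data known. The procedure was tested on simulated counts drawn as independent libraries. That test does not cover libraries of a line that are technical repeats.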

Additional observations from a re-analysis of the deposited data

Results flagged for a closer look

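The genotype by culture term, the Mta123∆ change minus the Control change on the log2 scale, passed an adjusted p of 0.05 (edgeR) with an absolute term above 1 in 37 of the genes whose term the report gives. Among the naive and general pluripotency genes it was 2.88 for Klf4, 3.28 for Tfcp2l1, 3.16 for Tbx3, 1.73 for Esrrb, 1.96 for Prdm14, 1.22 for Sox2, -2.03 for Gbx2 and -1.88 for Tdgf1. In the formative and neural genes it was -2.36 for Pou3f1, -2.04 for Dnmt3b, -3.48 for Dnmt3l, 1.57 for Etv4, -1.55 for Sox1 and -4.30 for Dll1. For the signalling read-outs it was 1.31 for Stat3, 2.30 for Bcl3, 1.09 for Dusp6, -1.19 for Ccnd1, 1.13 for Axin2, 3.04 for Sp5, -1.79 for Rnf43 and -4.94 for Lgr5. Lgr5 was under 1 CPM in all Control libraries. The values of Tfap2c (4.30), Krt18 (-2.80), Mdm2 (1.2) and Mt1 (1.62) belong to other lists. Outside the lists it was 5.48 for Fbp1, -7.02 for Gjb2, -2.59 for Foxd1, 2.18 for Bhmt, 1.78 for Bhmt2, 1.86 for Dmgdh, 7.53 for Lrrc15, 5.81 for Slc26a9, 5.31 for Cnga4, -7.11 for Enpp2 and -5.79 for Sema6a.

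The line by culture term within Mta123∆, line 2 minus line 1, passed in 21 genes with an absolute term above 1. It was above 0 for Nr0b1 (1.68), Tdh (1.09), Otx2 (2.25), Foxd3 (2.30), Zic2 (1.25), Dnmt3a (1.17), Pou3f1 (1.07), Dll1 (1.5), Lef1 (3.65), Notum (1.61), Enox1 (3.65), Bcl11a (2.99) and Enpp3 (2.80). It was below 0 for Tfcp2l1 (-1.30), Cdx1 (-1.99), Axin2 (-1.08), Lama1 (-1.55), Dppa1 (-2.66), Tmem132c (-2.09), Sh2d4b (-1.98) and Pramef17 (-1.98).

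In the Mta123∆ libraries labelled 48 h, replicate 2_1 stood apart from the other 3 for Dusp6 (5.79 CPM) and for Spry2 (64.4 CPM), both negative regulators of ERK signalling. The gap to the nearest library was above Dixon's 95% critical value for 4 libraries. These were 2 of 271 groups examined, and chance alone marks about 1 in 20 groups.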

How the results depend on the processing

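The Mta123∆ counts past both thresholds, 1293 higher and 1367 lower, were 994 and 1041 with no replicate block, 1313 and 1383 with the line as block, 1266 and 1297 in DESeq2, 1665 and 1563 without the filter on low counts, 1124 and 1238 with the libraries of each line summed, and 1186 to 1271 and 1277 to 1347 with a replicate number left out. Without the fold threshold they were 4262 and 4882. With a replicate number left out, the Control counts were 2882 to 2971 and 2191 to 2338, the genotype terms 1290 to 1568 above and 1832 to 2046 below 0, and the line terms 205 to 237 above and 112 to 226 below 0. ERCC scaling gave 151 line terms above 0.

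Of 148 genes followed through the alternatives, 23 lost their call with no replicate block, 17 with summed libraries, 11 with ERCC scaling, 1 in DESeq2, 0 with RLE size factors and 5 to 9 with a replicate number left out. Direction turned only within single lines. In line 1 alone this held for Zic2 (-0.48), Lef1 (-0.64), Id3 (0.46) and Enox1 (-0.45), and in line 2 alone for Nr0b1 (0.45) and Cdkn1c (0.65). The calls lost with no replicate block included Pou5f1, Sox2, Tcl1, Lifr, Notum, Bmp7, Lrrc15, Dppa1 and the keratin genes, all of which differed in level between the lines. Genes under 1 CPM are limited by depth, and variation between lines is sampled by 2 lines per genotype.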
